A study of Rattus norvegicus with 9 samples.

Results

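The DNA replication and S phase genes are 39 rat genes that build, license, feed or trigger the machinery that copies chromosomes. They were chosen by name for their roles in DNA replication, nucleotide supply and origin licensing. No cutoff on a measured value was used, but earlier results of these data were known when they were chosen. All 39 were present among the 17337 genes of the count table. The RNA came from cultured rat cardiac fibroblasts, the connective tissue cells of the heart, and the 9 libraries compared the heart at 3 ages. All cells were from Sprague Dawley rats with no genotype given in the labels. The hearts were taken at embryonic day 18 for the fetal, on postnatal day 1 for the neonatal and at 7 weeks of age for the adult group, with 3 libraries per age. All were at passage 0 and filled T75 flasks to confluence in DMEM with 10% fetal bovine serum, penicillin and streptomycin, and 0.1 mM ascorbic acid before lysis. The labels name no sorting step and do not say whether libraries of an age came from separate animals, so p-values measure only the spread between these samples, which may be technical. In such bulk samples, fewer cells of a type and less RNA per cell cannot be told apart.

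Replication begins when the origin recognition complex, with Cdc6 and Cdt1, loads the MCM ring onto DNA in G1, and S phase kinases then turn the loaded ring into a working helicase by adding Cdc45 and the GINS complex. Primase and DNA polymerase alpha start each new strand, polymerases delta and epsilon extend it on the sliding clamp Pcna, and ribonucleotide reductase and thymidylate synthase keep the supply of nucleotides up. Many of these genes are classic targets of E2F transcription factors, which cyclin E and Cdk2 release from the retinoblastoma protein at the entry into S phase, and heart cells as a rule divide often before birth and rarely in the adult.

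Library totals ran from 13392825 to 22850491 assigned counts, and all 39 genes passed the filter on low counts, with 64 counts as the lowest value of any of them in any library. Abundances below are counts per 1000000 assigned counts (CPM), scaled between libraries by the trimmed mean of M values (TMM). A gene was called where the adjusted p of edgeR's quasi-likelihood test, corrected by the Benjamini-Hochberg method over the 11337 genes tested, was under 0.05. Fibroblast markers were abundant as a sum at every age (12 genes, 37323 to 79314 CPM in fetal, 96063 to 103367 in neonatal and 40583 to 52225 in adult cultures). Col1a1 alone measured 14800 to 32990 CPM in fetal libraries, and Col1a2 stayed at or below 0.976 CPM in every library. Tcf21 measured 6.91 to 14.4 CPM in fetal, 84.7 to 88.5 in neonatal and 108 to 226 in adult libraries. Thy1 measured 43.3 to 95.8, 315 to 330 and 258 to 331 CPM. Without overlap, 8 of the 12 were higher and 0 lower in neonatal than in fetal libraries. In adult against fetal libraries 5 were higher and 2 lower without overlap, and in adult against neonatal libraries 4 were higher and 6 lower. Lum, for example, measured 46.0 to 164 CPM in fetal, 125 to 133 in neonatal and 20.2 to 39.1 in adult libraries. Of all 11337 genes tested, 3311, 4073 and 4261 lay higher and 3191, 4063 and 4369 lower without overlap in these comparisons. The ages also differed in other cell types. Macrophage markers summed to 14.3 to 69.1 CPM in fetal, 157 to 173 in neonatal and 4171 to 5729 in adult cultures, with 12 of 12 higher in adult than at both other ages without overlap and Cd163 at 0 in fetal and neonatal libraries. Cardiomyocyte markers summed to 10146 to 14301, 6540 to 7238 and 306 to 321 CPM, with 12 of 12 lower in adult than at both other ages without overlap. Mural cell markers summed to 1838 to 3276, 4711 to 4824 and 1583 to 2020 CPM. Of these 9, 7 were higher and 1 lower in neonatal than in fetal libraries without overlap, and 8 lower and 0 higher in adult than in neonatal libraries. Endothelial markers summed to 18.0 to 27.6, 30.5 to 34.8 and 99.8 to 120 CPM. The part of these cells in the results below was not tested.

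Neonatal cultures had less replication RNA than fetal cultures. Of the 39 genes, 24 were called lower in neonatal than in fetal libraries, where 18% of all genes tested were called lower and 36.3% were called in either direction. None was called higher by edgeR, none was higher at an unadjusted p under 0.05, and DESeq2 called 0 higher and 26 lower. The median log2 fold change of the 39 was -0.46, beside -0.01 for all genes tested. The neonatal libraries lay below all fetal libraries for 35 of the 39, where 28.1% of all genes tested did so. The count of 24 depended on the neonatal libraries, because leaving out neonatal replicate 1, 2 or 3 left 11, 10 or 7 genes called. The median of the 39 hardly moved in these fits, at -0.46, -0.45 and -0.45. Calls over all genes fell as well. With 1 library left out, the genes called lower numbered as few as 1090, beside 2040 with all libraries. Mcm2, Mcm5, Mcm6, Mcm7, Prim2 and Dut, 6 of the 24, were called whichever of the 9 libraries was left out. The summed CPM of the 39 genes was 1882, 1856 and 2484 in the fetal libraries, 1531, 1504 and 1506 in the neonatal libraries and 1311, 1493 and 1673 in the adult libraries. Fetal replicate 3 thus stood above the other fetal libraries, and the neonatal libraries lay close together between 1504 and 1531.

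Adult cultures were lower than fetal cultures as often, and did not follow a common direction against neonatal cultures. In adult against fetal libraries 24 of the 39 genes were called lower, where 35.5% of all genes tested were called lower and 70.5% in either direction, and the median log2 fold change was -0.49 beside -0.01 for all genes. None was called higher by edgeR, with 0 at an unadjusted p under 0.05 and 0 by DESeq2. Of the 24 called lower, 18 were called whichever library was left out. Cdc6 and Dut lost the call without adult replicate 1, Pola2 without adult replicate 1 or fetal replicate 2 and Rfc5 without adult replicate 1 or 2, while Rfc3 lost it without any 1 of 7 libraries and Chaf1b without any 1 of 6. The count of 0 higher was 5 without fetal replicate 3 (Gmnn, Gins2, Pcna, Rrm2 and E2f1) and 2 without adult replicate 1 (Gins2 and Pcna). In adult against neonatal libraries 6 genes were called higher and 8 lower, where 31.6% and 31.8% of all genes tested were, and the median was 0.02 beside -0.01. The count of 6 higher was 10 without fetal replicate 3 and 11 without adult replicate 1, and 12 of the 14 genes were called whichever library was left out, with Rrm1 and Ccne2 as the exceptions. A test over the 3 ages together called 30 of the 39, where it called 77.6% of all genes tested. The 3 comparisons share libraries, so their values are set side by side and not correlated.

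**Figure D1:**
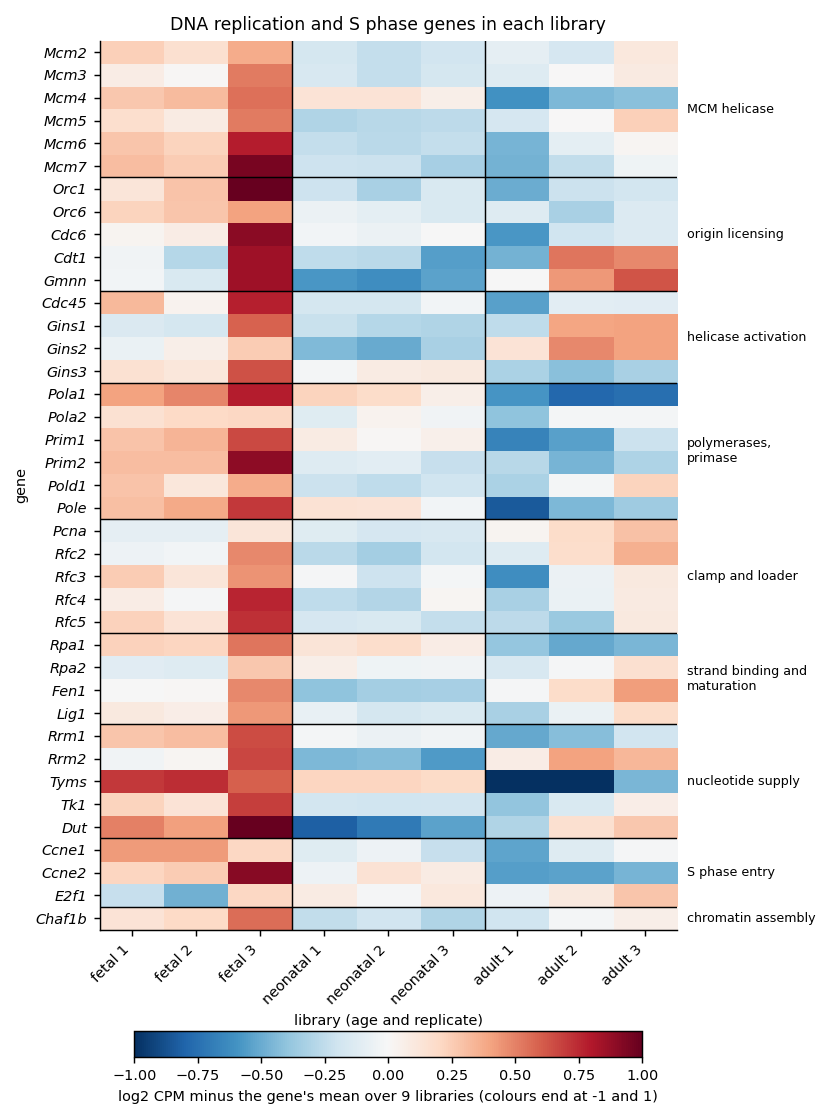
Each row is a replication gene, ordered by role, and each column a library; colour gives the log2 CPM relative to the gene's mean over the 9 libraries. Fetal replicate 3 is the highest fetal library for 37 of the 39 genes, and the adult columns range from genes far below to genes near the fetal level.

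The promoters bear on these genes because E2F factors are their best known regulators, so the letters of known motifs were searched in RefSeq promoter sequences (assembly GRCr8, from 250 bases before to 50 bases after each gene's start). Of the 39 genes, 33 had an entry, and Mcm4, Orc1, Cdc6, Rrm2, Ccne2 and E2f1 had none. The E2F letters searched were TTTCCCGC, TTTGGCGC, TTTCGCGC and TTTGCCGC on both strands. They occurred in 15 of the 33 promoters (45.5%), in 4.12% of the 9149 promoters of genes tested here and in 2.25% of all 27457 promoters of that length. The 5 MCM promoters with an entry all held them, and so did 2 of the genes that differed most among the ages, Pola1 and Tyms, within the bases before the start. The 250 bases before the start of Pola1, Tyms and the MCM genes with a whole match there are shown because they carry those letters, with the MCM set chosen after the matches were seen. Mcm3 is left out because its matches span or follow the start. The sequences run 5′ to 3′ on the gene's strand, and capitals mark E2F matches on either strand.
Mcm2, chr4:122918095-122918344, minus strand: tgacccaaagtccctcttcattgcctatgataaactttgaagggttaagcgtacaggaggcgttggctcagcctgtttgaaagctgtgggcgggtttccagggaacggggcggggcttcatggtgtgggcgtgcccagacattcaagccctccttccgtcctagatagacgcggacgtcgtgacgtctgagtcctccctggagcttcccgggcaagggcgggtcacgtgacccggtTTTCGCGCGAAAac
Mcm5, chr19:13488563-13488812, plus strand: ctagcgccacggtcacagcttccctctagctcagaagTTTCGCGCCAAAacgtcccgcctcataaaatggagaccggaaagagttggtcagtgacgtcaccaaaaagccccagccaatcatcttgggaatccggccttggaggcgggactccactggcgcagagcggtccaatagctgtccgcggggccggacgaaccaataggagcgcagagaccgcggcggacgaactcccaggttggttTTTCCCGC
Mcm6, chr13:42404353-42404602, minus strand: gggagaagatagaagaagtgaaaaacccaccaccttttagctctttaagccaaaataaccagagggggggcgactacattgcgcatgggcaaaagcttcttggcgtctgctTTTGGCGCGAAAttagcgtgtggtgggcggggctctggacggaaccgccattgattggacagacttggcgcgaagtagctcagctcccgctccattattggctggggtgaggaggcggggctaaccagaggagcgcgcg
Mcm7, chr12:22163179-22163428, minus strand: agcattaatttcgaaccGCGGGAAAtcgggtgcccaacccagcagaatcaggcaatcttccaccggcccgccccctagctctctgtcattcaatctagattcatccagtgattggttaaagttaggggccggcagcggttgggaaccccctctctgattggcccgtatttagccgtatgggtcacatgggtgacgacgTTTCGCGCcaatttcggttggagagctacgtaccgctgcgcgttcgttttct
Pola1, chrX:62342356-62342605, minus strand: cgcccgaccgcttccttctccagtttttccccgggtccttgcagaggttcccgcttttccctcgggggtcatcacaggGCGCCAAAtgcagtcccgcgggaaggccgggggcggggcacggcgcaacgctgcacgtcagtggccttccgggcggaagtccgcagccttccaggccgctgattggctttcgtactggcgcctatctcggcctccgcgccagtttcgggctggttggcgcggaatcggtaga
Tyms, chr9:120776084-120776333, minus strand: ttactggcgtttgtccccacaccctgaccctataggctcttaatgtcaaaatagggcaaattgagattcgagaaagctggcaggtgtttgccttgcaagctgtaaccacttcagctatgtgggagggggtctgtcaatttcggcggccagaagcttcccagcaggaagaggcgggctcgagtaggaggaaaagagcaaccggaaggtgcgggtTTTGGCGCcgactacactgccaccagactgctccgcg
The match in Mcm2, TTTCGCGCGAAA, lay at positions -14 to -3, where -1 is the last base before the start, and reads the same on both strands, so it counts as a match on each. Mcm5 and Mcm6 hold a run of the same kind, TTTCGCGCCAAA and TTTGGCGCGAAA, in which a match on 1 strand overlaps a match on the other, at positions -213 to -202 and -139 to -128. Mcm5 has a further TTTCCCGC that ends at the last base before the start, and Mcm7 has matches at -233 to -226 and -52 to -45. The match in Pola1 lay at -172 to -165 and that in Tyms at -37 to -30. Of the other genes that differed most among the ages, Pole held a match that spans its start, and the windows of Rpa1, Rrm1 and Prim1 did not hold the letters. Genes not called in the test over the 3 ages held them too, namely Cdt1, Gins1, Rfc3, Rpa2 and Lig1. Rfc2 and Rfc4, also not called, lacked them. A match is a description of letters, not a measured site.

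The letters of NF-Y and CHR motifs were searched in the same promoters. CCAAT, the core letters of the NF-Y site, was found on either strand in 57.6% of the 33 promoters and in 37.4% of those of tested genes. TTTGAA or TTCGAA, the letters of the cell cycle homology region (CHR), which is known from genes expressed in G2 and mitosis, occurred in 15.2% beside 13.2%. In a list of mitosis and G2 genes, 24 of which had an entry, the share with E2F letters was 4.17%, that with CCAAT 75% and that with CHR letters 75%. A list of other replication genes, 42 of which had an entry, had 40.5%, 47.6% and 28.6%. Over all promoters CCAAT was found in 37.7% and CHR letters in 19.5%. Matches of different motifs were counted separately, also where they share bases.

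**Figure D2:**
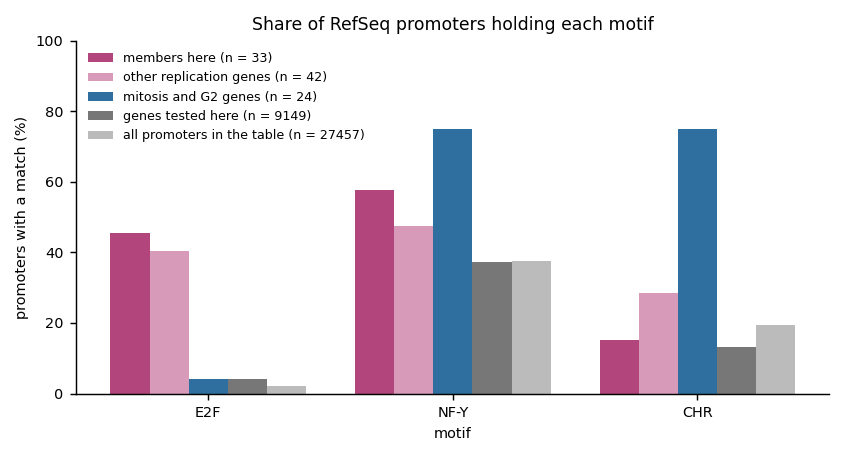
Bars give the percent of promoters with at least 1 match for E2F, NF-Y and CHR letters, among the 39 replication genes (33 with an entry), other replication genes, mitosis and G2 genes, all genes tested and all promoters. The E2F share is 45.5% in the replication genes and 4.17% in the mitosis genes, and the CHR share is 15.2% and 75%.

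The MCM genes encode the 6 subunits of the ring that unwinds DNA. All 6 were called lower in neonatal than in fetal libraries without overlap between these ages. Of all genes tested, 18% were called lower and 28.1% lay lower without overlap. Mcm2 (chr4:120825699-120840111 on rn6) measured 104, 99.0 and 115 CPM in fetal, 78.4, 75.2 and 77.6 in neonatal and 83.3, 79.1 and 95.3 in adult libraries. Every fetal library was above every other library, with a log2 value of -0.46 (SE 0.0838, edgeR adjusted p = 0.00319) in neonatal and -0.30 (SE 0.0839, adjusted p = 0.00907) in adult against fetal libraries. Mcm6 (chr13:45042882-45068073) measured 126, 121 and 179 CPM in fetal, 87.9, 86.1 and 87.7 in neonatal and 75.2, 96.9 and 105 in adult libraries. Its fetal values again stood apart from the rest, while adult values lay on both sides of the neonatal ones. The neonatal log2 fold change against fetal was -0.70 (SE 0.162, adjusted p = 0.0102). Mcm7 (chr12:19306620-19313877) measured 107, 103 and 167 CPM in fetal, 74.7, 74.2 and 68.7 in neonatal and 62.1, 72.8 and 83.9 in adult libraries. Its log2 fold change was -0.79 (SE 0.184, adjusted p = 0.0105) in neonatal against fetal libraries, the largest of the ring there, and -0.78 (adjusted p = 0.00407) in adult against fetal libraries, and adult and neonatal values overlapped.

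Mcm5 (chr19:14523570-14560830) measured 68.6, 64.5 and 87.7 CPM in fetal, 49.6, 50.3 and 50.9 in neonatal and 54.3, 61.3 and 72.0 in adult libraries. The neonatal values were the lowest of the 3 ages without overlap, while adult and fetal values overlapped. It was called in neonatal against fetal libraries (log2 fold change -0.55, SE 0.13, adjusted p = 0.011), and its adult value against neonatal, 0.31, did not pass (adjusted p = 0.0603). Mcm3 had the same order of means, 91.0 ± 18.2 CPM in fetal, 68.5 ± 2.0 in neonatal and 77.8 ± 6.05 in adult cultures (SD, n = 3), and passed only in neonatal against fetal libraries (-0.41, edgeR adjusted p = 0.0318).

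Mcm4 departed from its partners in the adult. It measured 79.2, 82.1 and 96.1 CPM in fetal, 72.2, 72.4 and 68.6 in neonatal and 43.2, 48.2 and 49.3 in adult libraries (chr11:89511191-89524892). The 3 ages did not overlap. The log2 fold change was -0.27 (adjusted p = 0.0359) in neonatal against fetal, -0.87 (SE 0.0882, adjusted p = 1.81e-05) in adult against fetal and -0.60 (SE 0.0882, adjusted p = 0.000281) in adult against neonatal libraries, all by edgeR. No other MCM gene was called between adult and neonatal libraries, and for the other 5 the log2 values there ran from 0.01 to 0.31.

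Origin licensing genes place the ring on DNA. Of the 5, 3 were called lower in neonatal and 3 in adult than in fetal libraries, though not the same 3. Of all genes tested, 18% and 35.5% were called lower there. Orc6 (chr19:27457544-27464804), a subunit of the origin recognition complex, measured 18.8, 19.5 and 21.4 CPM in fetal, 15.5, 15.1 and 14.5 in neonatal and 14.8, 12.9 and 14.7 in adult libraries. All fetal values were above all others, by a log2 value of -0.40 (SE 0.095, edgeR adjusted p = 0.0107) in neonatal and -0.49 (SE 0.0966, adjusted p = 0.00129) in adult libraries. Without neonatal replicate 3 the neonatal value had an adjusted p of 0.0547. Orc1, its largest subunit, was also called lower in neonatal (-0.83, adjusted p = 0.0292) and adult (-0.89, adjusted p = 0.0106) than in fetal libraries. Its fetal values were 13.7, 15.4 and 28.3 CPM, so fetal replicate 3 stood far above the other fetal libraries. Cdc6, the loading ATPase, was called lower only in adult against fetal libraries (-0.68, adjusted p = 0.023).

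Geminin (Gmnn, chr17:42302540-42310783), the inhibitor of Cdt1 that blocks a repeat round of licensing, took a different course. It measured 23.9, 21.9 and 43.9 CPM in fetal, 16.2, 15.8 and 16.8 in neonatal and 24.3, 32.8 and 37.7 in adult libraries. The neonatal libraries were the lowest without overlap, and adult and fetal libraries overlapped. It was lower in neonatal than in fetal libraries (log2 fold change -0.87, SE 0.263, edgeR adjusted p = 0.0304) and higher in adult than in neonatal libraries (0.95, SE 0.266, adjusted p = 0.0115), a 1.94-fold difference. Cdt1 itself, the licensing factor, measured 14.1, 11.8 and 25.9 CPM in fetal, 12.1, 12.0 and 9.84 in neonatal and 10.4, 20.9 and 20.1 in adult libraries. These ranges overlapped between all ages and no comparison of Cdt1 passed (log2 fold change -0.61 in neonatal against fetal, adjusted p = 0.179, and 0.60 in adult against neonatal, adjusted p = 0.149).

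Helicase activation needs Cdc45 and the GINS complex, and their subunits did not move as a unit. Gins2 (chr19:54151048-54163608) measured 17.0, 18.5 and 21.2 CPM in fetal, 13.1, 12.5 and 14.2 in neonatal and 19.5, 24.8 and 23.4 in adult libraries. Neonatal values were below all others, and the adult range overlapped the fetal one. Gins2 was lower in neonatal than in fetal libraries (log2 fold change -0.51, SE 0.123, edgeR adjusted p = 0.012) and 1.7-fold higher in adult than in neonatal libraries (0.77, SE 0.124, adjusted p = 0.000512). Its adult value against fetal was 0.26 (SE 0.122, adjusted p = 0.0837), the highest of the 39 in that comparison, and it passed without fetal replicate 3 (0.35, adjusted p = 0.0183).

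Gins3, another subunit of the same complex, had 6.86, 6.70 and 9.62 CPM in fetal, 6.11, 6.55 and 6.60 in neonatal and 4.97, 4.62 and 4.94 in adult libraries. Here the adult libraries were the lowest, and the call was in adult against fetal libraries (-0.67, edgeR adjusted p = 0.00663). Gins1 passed in no comparison (-0.40, adjusted p = 0.213, in neonatal against fetal and 0.48, adjusted p = 0.11, in adult against neonatal libraries). Cdc45, which joins GINS and the ring, was lower than in fetal libraries in neonatal (-0.54, adjusted p = 0.0499) and adult libraries (-0.65, adjusted p = 0.0124), and the neonatal call was lost without any 1 of 7 libraries.

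**Figure D3:**
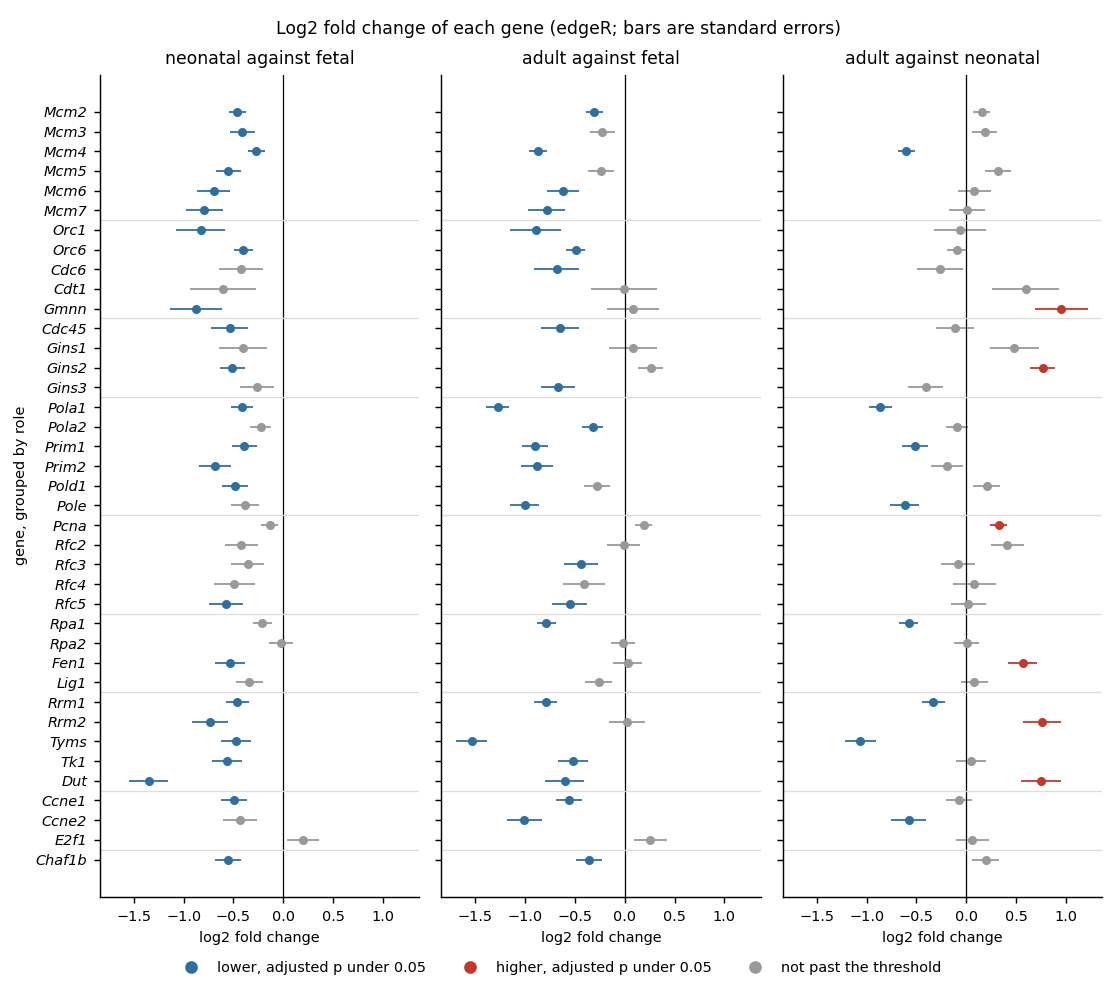
Points give the log2 fold change of each replication gene in the 3 comparisons and bars its standard error, with called genes coloured by direction. In neonatal against fetal libraries 38 of 39 points lie below 0 (50.6% of all genes tested do), and in adult against neonatal libraries 22 lie above and 17 below (50.3% of all genes lie below).

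The polymerases and primase include several genes that were lowest in the adult. Of these 6 genes, 5 were called lower in adult than in fetal and 3 lower in adult than in neonatal libraries. Of all genes tested, 35.5% and 31.8% were called lower in these comparisons. Pola1 (chrX:62382604-62698830), the catalytic subunit of polymerase alpha, measured 42.7, 45.4 and 55.7 CPM in fetal, 37.6, 36.7 and 33.6 in neonatal and 21.4, 18.8 and 19.2 in adult libraries. The 3 ages were fully separate. Pola1 was 2.42-fold lower in adult than in fetal libraries (log2 fold change -1.28, SE 0.113, edgeR adjusted p = 7.63e-06), -0.86 (SE 0.114, adjusted p = 0.000142) in adult against neonatal and -0.41 (adjusted p = 0.0172) in neonatal against fetal libraries. Its partner Pola2, the regulatory subunit, differed less, with 28.4 ± 0.566 CPM in fetal, 24.3 ± 1.28 in neonatal and 22.7 ± 3.29 in adult cultures (SD, n = 3). Pola2 passed only in adult against fetal libraries (-0.32, adjusted p = 0.0237).

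Prim1 (chr7:2435524-2451167), the catalytic subunit of primase, measured 89.1, 92.5 and 115 CPM in fetal, 77.3, 73.6 and 75.6 in neonatal and 45.9, 49.98 and 62.9 in adult libraries. Each age lay below the one before it without overlap, with -0.90 (SE 0.13, edgeR adjusted p = 0.000189) in adult against fetal and -0.51 (SE 0.13, adjusted p = 0.00681) in adult against neonatal libraries. Prim2 (chr9:38535456-38745049), the large primase subunit, measured 21.5, 21.5 and 32.2 CPM in fetal, 15.9, 16.1 and 14.8 in neonatal and 14.3, 12.6 and 14.004 in adult libraries. The step of Prim2 lay between fetal and neonatal libraries (-0.69, SE 0.158, adjusted p = 0.00967), and its adult value against neonatal, -0.19, did not pass (adjusted p = 0.325).

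Pole (chr12:52403533-52452042), the catalytic subunit of the leading strand polymerase epsilon, measured 43.9, 46.3 and 58.2 CPM in fetal, 39.5, 39.1 and 35.0 in neonatal and 19.9, 26.1 and 27.9 in adult libraries. All adult libraries were below all others, 2.01-fold against fetal (SE 0.145 on the log2 scale, edgeR adjusted p = 0.000194) and by a log2 value of -0.62 against neonatal libraries (SE 0.146, adjusted p = 0.00454). Pold1, the catalytic subunit of the lagging strand polymerase delta, showed another pattern. It was called lower only in neonatal against fetal libraries (-0.48, adjusted p = 0.0185), with 31.6 ± 2.84 CPM in fetal, 22.6 ± 0.443 in neonatal and 26.0 ± 4.83 in adult cultures (SD, n = 3).

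The sliding clamp and its loader had 2 of 5 genes called in the test over all ages, where 77.6% of all genes tested were. Pcna, the clamp that holds polymerases on DNA, measured 121, 121 and 140.5 CPM in fetal, 119, 115 and 115 in neonatal and 132, 147 and 158 in adult libraries. The adult libraries were above all neonatal ones (log2 fold change 0.32, edgeR adjusted p = 0.00775) and overlapped the fetal ones (0.19, adjusted p = 0.0698). Of the loader subunits, Rfc5 was called lower in neonatal (-0.57, adjusted p = 0.0281) and adult (-0.55, adjusted p = 0.0165) than in fetal libraries. Rfc3 was called lower in adult than in fetal libraries (-0.44, adjusted p = 0.0409). Rfc2 and Rfc4 passed in no comparison, with values of -0.42 and -0.49 in neonatal against fetal libraries (adjusted p = 0.0727 and 0.093).

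Single-stranded DNA is covered by the RPA complex, whose members Rpa1 and Rpa2 stood apart from each other. Rpa1 (chr10:62141360-62184874), the large DNA-binding subunit, measured 56.0, 55.4 and 69.1 CPM in fetal, 52.0, 53.8 and 50.3 in neonatal and 36.5, 33.4 and 34.7 in adult libraries. All adult values were below the rest, with -0.79 (SE 0.0948, edgeR adjusted p = 5.7e-05) against fetal and -0.58 (SE 0.0949, adjusted p = 0.000559) against neonatal libraries. Rpa2 had overlapping libraries at all ages, 37.4 ± 6.07 CPM in fetal, 36.8 ± 1.46 in neonatal and 36.9 ± 4.04 in adult cultures (SD, n = 3), with a log2 value of -0.02 (SE 0.123, adjusted p = 0.91) in adult against fetal libraries.

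Fen1 and Lig1 finish the lagging strand by cutting flaps and sealing nicks. Fen1 measured 35.3, 35.7 and 49.3 CPM in fetal, 26.9, 28.0 and 28.1 in neonatal and 35.2, 40.3 and 47.3 in adult libraries. The neonatal libraries were below all others, and Fen1 was lower in neonatal than in fetal (-0.54, edgeR adjusted p = 0.0203) and higher in adult than in neonatal libraries (0.57, adjusted p = 0.00808). Lig1 passed in no comparison, with -0.34 (adjusted p = 0.0777) in neonatal against fetal libraries. Chaf1b (chr11:34101291-34121371), a subunit of the factor that places histones on new DNA, measured 15.6, 16.2 and 20.9 CPM in fetal, 11.9, 12.4 and 11.5 in neonatal and 12.3, 14.01 and 14.8 in adult libraries. Fetal values were above all others, with -0.55 (SE 0.132, adjusted p = 0.0114) in neonatal and -0.36 (SE 0.133, adjusted p = 0.0356) in adult libraries. The neonatal call was lost without neonatal replicate 3 (adjusted p = 0.053).

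All 5 nucleotide supply genes were called lower in neonatal than in fetal libraries, where 18% of all genes tested were. They parted in the adult. Tyms (chr9:121918883-121931564), thymidylate synthase, which makes dTMP from dUMP, measured 46.3, 47.5 and 43.0 CPM in fetal, 33.0, 33.0 and 32.4 in neonatal and 13.6, 12.9 and 20.7 in adult libraries. The ages were fully separate, and fetal replicate 3 was the lowest fetal library here. Tyms was 2.9-fold lower in adult than in fetal (log2 fold change -1.54, SE 0.157, edgeR adjusted p = 1.94e-05) and 2.09-fold lower in adult than in neonatal libraries (-1.06, SE 0.157, adjusted p = 0.000296). The change against fetal was the largest of the 39 genes in any comparison. Tk1, the thymidine kinase of the salvage route to the same nucleotide, was lower than in fetal libraries in neonatal (-0.56, adjusted p = 0.019) and adult libraries (-0.52, adjusted p = 0.0129) and had 0.05 (adjusted p = 0.805) between adult and neonatal libraries.

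The subunits of ribonucleotide reductase, which turns ribonucleotides into deoxyribonucleotides, also parted. Rrm1 (chr1:167538387-167562688), the large catalytic subunit, measured 233, 239 and 303 CPM in fetal, 190.2, 185 and 188 in neonatal and 136, 143 and 169 in adult libraries, each age below the one before. Its log2 fold change was -0.79 (SE 0.115, edgeR adjusted p = 0.000199) in adult against fetal and -0.33 (SE 0.115, adjusted p = 0.0297) in adult against neonatal libraries. Rrm2 (chr6:43884627-43890818), the small subunit that is made in S phase, measured 20.4, 21.3 and 33.3 CPM in fetal, 15.3, 15.5 and 14.1 in neonatal and 22.0, 27.7 and 26.4 in adult libraries. Adult values were above all neonatal ones and inside the fetal range, with -0.74 (SE 0.184, adjusted p = 0.0138) in neonatal against fetal and 0.76 (SE 0.186, adjusted p = 0.00561, 1.69-fold) in adult against neonatal libraries.

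Dut (chr3:117514444-117525444), the dUTPase that keeps uracil out of DNA and supplies dUMP, measured 22.1, 20.6 and 31.4 CPM in fetal, 8.81, 9.53 and 10.7 in neonatal and 12.6, 17.3 and 18.7 in adult libraries. The 3 ages did not overlap, and neonatal libraries were the lowest. Dut was 2.55-fold lower in neonatal than in fetal libraries (log2 fold change -1.35, SE 0.196, edgeR adjusted p = 0.00106), the only one of the 39 called past a log2 change of 1 there, where 11.2% of all genes tested were. It was higher in adult than in neonatal libraries (0.75, SE 0.2, adjusted p = 0.00899) and lower than in fetal libraries (-0.60, adjusted p = 0.0183).

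The genes of S phase entry included the only gene with a positive value in neonatal against fetal libraries. E2f1 (chr3:150062895-150073721), an activating member of the E2F family, measured 19.98, 16.8 and 27.1 CPM in fetal, 24.8, 23.2 and 25.2 in neonatal and 22.7, 25.1 and 28.5 in adult libraries. The ranges overlapped between all ages, and no comparison passed (0.20, SE 0.164, edgeR adjusted p = 0.369 in neonatal against fetal libraries). Without fetal replicate 3 it was called higher in neonatal libraries (0.41, adjusted p = 0.0147). Ccne1 and Ccne2 encode E-type cyclins, the partners of Cdk2. Ccne2 (chr5:24434872-24446406) measured 27.1, 27.8 and 43.8 CPM in fetal, 22.6, 25.8 and 24.7 in neonatal and 15.99, 16.1 and 16.9 in adult libraries. The adult libraries were below all others, with -1.01 (SE 0.177, adjusted p = 0.000656) against fetal and -0.58 (SE 0.178, adjusted p = 0.0177) against neonatal libraries. Ccne1 was lower than in fetal libraries in neonatal (-0.49, adjusted p = 0.0178) and adult libraries (-0.56, adjusted p = 0.00381).

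The calls between consecutive ages gave the 39 genes several courses. Mcm4, Pola1, Prim1, Rrm1 and Tyms were lower in neonatal than in fetal and lower again in adult than in neonatal libraries, 5 genes of 39, where 7.99% of all genes tested took that course. Dut, Fen1, Gins2, Gmnn and Rrm2, another 5, were lower in neonatal than in fetal and higher in adult than in neonatal libraries, where 4.01% of all genes were. The largest class, 14 genes, was lower in neonatal libraries with no call afterwards (5.99% of all genes), and it held Mcm2, Mcm3, Mcm5, Mcm6, Mcm7, Orc1, Orc6, Cdc45, Prim2, Pold1, Rfc5, Tk1, Ccne1 and Chaf1b. Ccne2, Pole and Rpa1 were called lower only from neonatal to adult libraries (19.3% of all genes) and Pcna higher only there (19.4%). The remaining 11 genes were called in neither step (24.9%), and a missing call does not show an equal level. Of the 10 genes with calls in both steps, Dut was the only gene that had both whichever library was left out. The others lost the neonatal call without at least 1 neonatal library.

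**Figure D4:**
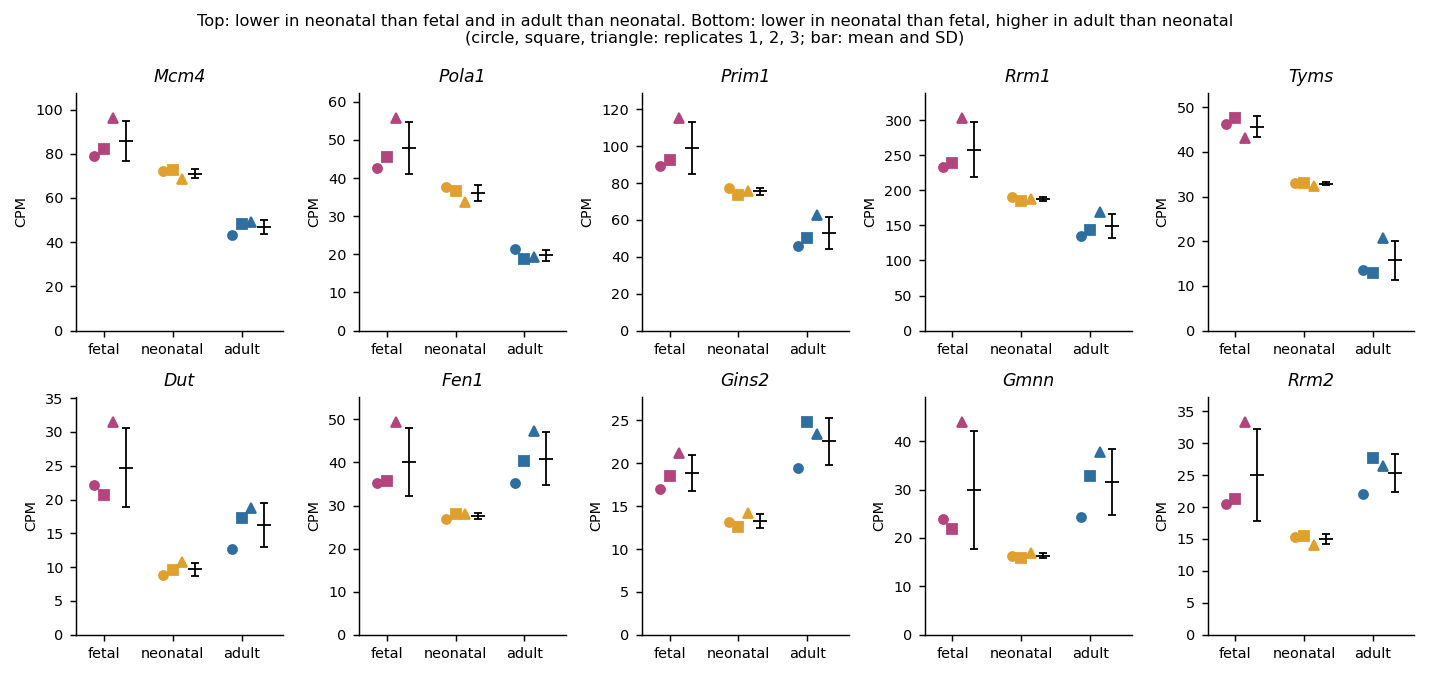
Each panel shows CPM by age for 1 gene, with a point per library and a bar for the mean and SD (n = 3). In the top row Mcm4, Pola1, Prim1, Rrm1 and Tyms step down at each age, and in the bottom row Dut, Fen1, Gins2, Gmnn and Rrm2 are lowest in neonatal libraries.

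Ratios between genes whose products work side by side differed between some ages and overlapped between others. They compare counts per base of exon within a library, so scaling between libraries does not enter them. Of 12 such ratios, chosen after the values were seen, 36 comparisons between ages were made, and with 3 libraries against 3 the exact two-sided permutation p cannot fall under 0.1 (lowest Benjamini-Hochberg adjusted p 0.133), so they are descriptions. The ratio of Rrm1 to Rrm2 was 9.60, 9.42 and 7.65 in fetal, 10.4, 10.0 and 11.2 in neonatal and 5.16, 4.35 and 5.39 in adult libraries. The adult ratio was the lowest without overlap. The ratio of Tyms to Tk1 was 0.758, 0.825 and 0.510 in fetal, 0.719, 0.724 and 0.709 in neonatal and 0.342, 0.273 and 0.377 in adult libraries, again lowest in the adult.

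Within the MCM ring, Mcm4 relative to the mean of the other 5 subunits was 0.673, 0.730 and 0.597 in fetal, 0.833, 0.855 and 0.808 in neonatal and 0.522, 0.516 and 0.467 in adult libraries. The adult ratio was the lowest and the neonatal the highest, without overlap between any ages. Pola1 relative to Pola2 was 0.675, 0.697 and 0.847 in fetal, 0.720, 0.631 and 0.606 in neonatal and 0.497, 0.336 and 0.341 in adult libraries, so the drop lay in the adult. Rpa1 relative to Rpa2 was 1.14, 1.14 and 1.08, then 0.936, 1.04 and 0.965, then 0.764, 0.632 and 0.585, falling at each age without overlap. Gmnn relative to Cdt1, the inhibitor to its target, ran from 2.51 to 4.43 over all libraries, and its ranges overlapped in all 3 comparisons.

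**Figure D5:**
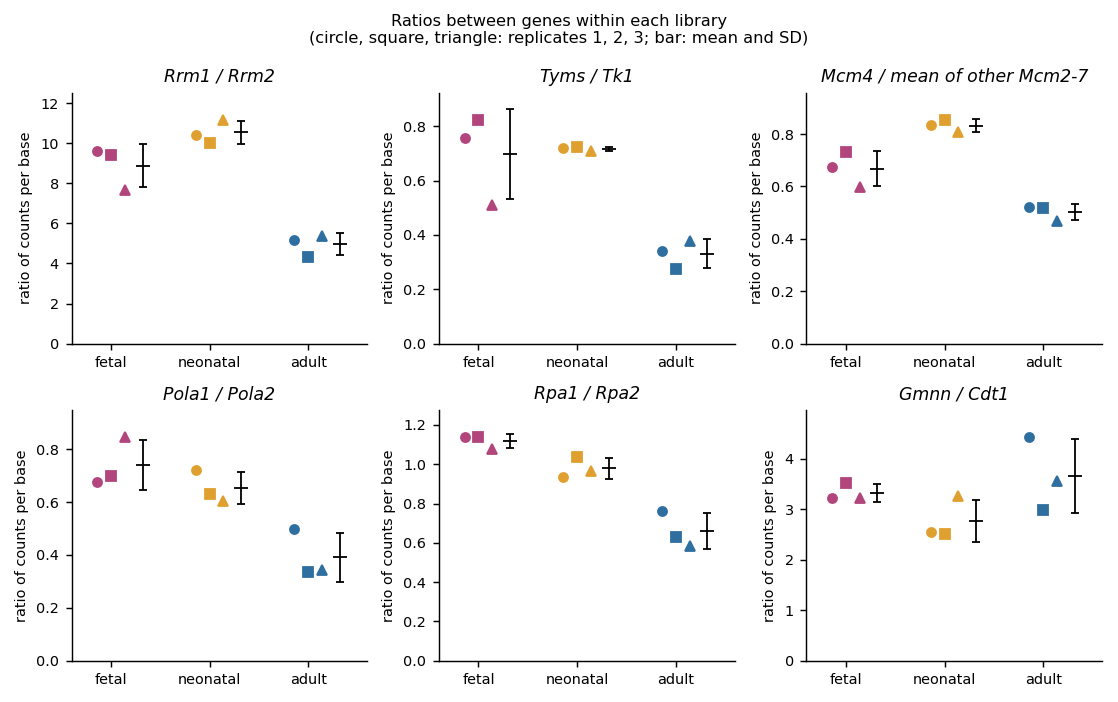
Panels show ratios between genes within each library (counts per base of exon), with a point per library and a bar for the mean and SD (n = 3). The Rrm1 to Rrm2 ratio is 4.35 to 5.39 in adult libraries and 7.65 or more elsewhere.

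Levels can be compared between genes once divided by exon length. In CPM per kilobase of exon, Pcna had the highest level of the 39 at every age, with means of 110.1 in fetal, 100.2 in neonatal and 125 in adult cultures, and Rrm1 was next with 85.8, 62.4 and 49.6. Prim1 followed at each age with 60.8, 46.4 and 32.5. Gins3 was the lowest at each age, with 3.34, 2.78 and 2.10. The order changed most visibly in the adult, where Tyms stood at 10.0 beside 30.2 for Tk1, against 29.1 beside 43.2 in fetal libraries. Gmnn stood at 26.8 in adult libraries and 25.4 in fetal libraries, with 13.8 between them in neonatal ones.

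The spread within an age was not even. Fetal replicate 3 was the highest fetal library for 37 of the 39 genes, with Tyms and Ccne1 as the exceptions, and its value over the mean of the other fetal libraries had a median of 1.39, from 0.860 in Ccne1 to 2.001 in Cdt1, beside 0.996 over all genes tested. That library also had the lowest fibroblast marker sum (37323 CPM) and an epithelial marker sum of 421 CPM over 8 genes, against 24.0 and 27.0 in the other fetal libraries, with Krt8 at 144 and Cdh1 at 113 CPM. Cldn18 stood at 58.5 CPM, against 1.35 and 1.15, and Col2a1 at 38.3, against 5.29 and 5.82. The macrophage marker sum was 69.1 CPM, against 15.1 and 14.3, and the mural cell marker sum 1838, against 3276 and 3246. The part of these differences in the result was not tested. In its median, the difference between neonatal and fetal libraries was smaller without fetal replicate 3 and kept its direction. For 35 of the 39 genes (89.7%) the neonatal libraries lay below both fetal replicate 1 and fetal replicate 2, where 35.3% of all genes tested did so. Without fetal replicate 3 the median log2 fold change was -0.31, beside -0.46 with all libraries. In that fit 21 of the 39 were called lower, and 2260 of all genes. Adult replicate 1 was the lowest adult library for 31 of the 39. The median coefficient of variation of the 39 was 19.9% in fetal, 3.74% in neonatal and 14.5% in adult cultures, beside 13.0%, 4.73% and 9.88% over all genes tested.

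Other genes of the pathway, 58 listed and 51 in the table, were mostly lower than in fetal libraries where they were called. In neonatal against fetal libraries 20 of the 51 were called lower and 2 higher (median log2 fold change -0.42), beside 18% and 18.3% of all genes tested. In adult against fetal libraries 31 were lower and 6 higher (-0.49), beside 35.5% and 34.9%, and in adult against neonatal libraries 22 were lower and 6 higher (-0.13), beside 31.8% and 31.6%. Without neonatal replicate 1, 2 or 3 the 20 became 8, 8 or 7, in fits added after the data were seen. Without fetal replicate 3 the first median was -0.20 and the count of 6 higher in adult than in neonatal libraries became 10, and without neonatal replicate 2 it became 3. Cdk2, the kinase partner of cyclins E and A, measured 51.9, 52.2 and 59.2 CPM in fetal, 36.0, 34.4 and 35.6 in neonatal and 22.5, 20.4 and 23.1 in adult libraries. Its ages were fully separate, with -0.62 (edgeR adjusted p = 0.000543) in neonatal against fetal and -1.31 (adjusted p = 8.61e-07) in adult against fetal libraries. Rb1, the retinoblastoma protein that restrains E2F, measured 24.8, 28.6 and 23.7 CPM in fetal, 40.4, 44.4 and 46.2 in neonatal and 33.6, 38.7 and 35.3 in adult libraries. It was highest in neonatal and lowest in fetal libraries without overlap, with 0.76 (adjusted p = 0.000523) in neonatal against fetal and -0.28 (adjusted p = 0.0284) in adult against neonatal libraries, both by edgeR.

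In adult against fetal libraries 15 of the 51 were called past a log2 change of 1, a share no larger than the 32.4% of all genes tested. Of the 15, 14 were lower. They included the maintenance DNA methyltransferase Dnmt1 (-1.05) and its partner Uhrf1 (-1.15), the histone chaperones Nasp (-1.50) and Rbbp7 (-1.07), and the topoisomerase Top1 (-1.11). Among origin firing and fork factors they were Orc2 (-1.01), Mtbp (-1.47), Mcm10 (-1.26), Dbf4 (-1.46), Tipin (-1.13) and Clspn (-1.20), and among cell cycle regulators Cdk2, Ccna2 (-1.13) and the E2F repressor E2f7 (-1.56). Pold4, the smallest subunit of polymerase delta, was the gene in the other direction, with 19.1, 17.3 and 9.09 CPM in fetal and 46.6, 40.6 and 38.9 in adult libraries (1.47, edgeR adjusted p = 0.000312). Between neonatal and adult libraries Rbbp7 fell from 516 ± 3.79 to 244 ± 36.1 CPM (SD, n = 3; -1.08, adjusted p = 2.42e-05), with E2f7 (-1.32) and Mtbp (-1.05) also past that size, 3 of 51 where 25% of all genes tested were. Rnaseh2a, the catalytic subunit of RNase H2, rose from 29.6 ± 0.919 to 57.9 ± 3.34 CPM (0.97, adjusted p = 4.2e-05).

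Genes of mitosis and G2, the phases after S, had medians further below 0 in the same libraries. Of 28 in the table, 17 were called lower in neonatal than in fetal libraries (median log2 fold change -0.64), 21 in adult than in fetal libraries (-0.91), and 12 lower with 1 higher in adult than in neonatal libraries (-0.32). Of all genes tested 18%, 35.5% and 31.8% were called lower in these comparisons. Fetal replicate 3 was the highest fetal library for all 28, with a summed 3165 CPM against 1995 and 2004. Without it 16 and 21 genes were called lower than in fetal libraries, with medians of -0.39 and -0.69. Without neonatal replicate 1, 2 or 3 the 17 became 8 each time, and without adult replicate 1 the 12 became 8. The 39 replication genes had -0.46, -0.49 and 0.02 in the same comparisons, and the difference between the lists was not tested. Kif23, a kinesin of cell division, measured 93.4, 99.9 and 151 CPM in fetal, 72.8, 67.1 and 68.9 in neonatal and 31.0, 37.8 and 36.8 in adult libraries. Its ages were separate, with -1.71 (edgeR adjusted p = 2.23e-05) in adult against fetal and -0.98 (adjusted p = 0.000925) in adult against neonatal libraries. Birc5, survivin, was the 1 gene called higher in adult than in neonatal libraries (0.59, edgeR adjusted p = 0.0112). It measured 25.1, 22.8 and 36.0 CPM in fetal, 14.9, 16.5 and 15.3 in neonatal and 21.1, 24.5 and 24.9 in adult libraries. The neonatal libraries were the lowest without overlap (-0.84 against fetal, adjusted p = 0.00434). Adult and fetal libraries overlapped (-0.25, adjusted p = 0.194).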

How the data were processed

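Total RNA of 9 rat cardiac fibroblast cultures was sequenced. The deposited count table holds whole-number read counts per gene for all libraries, made by the authors with featureCounts 1.6.3 on an rn6 annotation, per the file headers. The options recorded there leave counting unstranded and drop multi-mapped reads. The submitters' processing notes also name FastQC, Trimmomatic 0.39, STAR 2.5.2b and DESeq2. A second deposited table holds normalized signal values by the authors for 12786 genes. Each library's values were its counts over a constant (tolerance 1e-05), and only these constants were used, as an alternative scaling. The exons of the 39 genes overlapped no other annotated gene.

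Counts were tested in R 4.3.3 with edgeR 4.0.16 (filterByExpr by age, TMM, robust glmQLFit and glmQLFTest, age as the only term, all 9 libraries), with Benjamini-Hochberg adjustment over 11337 genes. Standard errors are the log2 fold change over the square root of F. The fit was tested on simulated data. The common dispersion of 0.0224 corresponds to a biological coefficient of variation of 0.15, and 1 CPM to 13.1 to 22.7 counts. Libraries of an age differed by more than sampling noise in every pair (chi-square per degree of freedom 2.05 to 97.3), but unevenly. The value was 2.05 to 2.76 for neonatal pairs, 3.94 for fetal replicates 1 and 2 and 6.76 to 43.0 for adult pairs. For fetal replicate 3 against fetal replicates 1 and 2 it was 90.0 and 97.3. Groups came from the age label, and replicate numbers from the labels' titles. Alternatives were DESeq2 1.42.0, scaling by library size or by the authors' size factors, no filter, the 2 ages compared alone, a replicate block and each library left out.

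The 39 genes, the lists of other replication, mitosis and marker genes and the motifs were chosen with earlier results of these data known. Every library's value and the test are given, in each comparison, for the 8 genes with the smallest adjusted p among those called and for the gene furthest in the other direction, and for further genes at will. From the other lists, the 2 genes with the smallest adjusted p and those called past a log2 change of 1 could be named. Promoters shown were taken from the 6 genes with the smallest adjusted p over the ages among those with a promoter entry, of which those with a whole match before the start are printed, and from the MCM genes. Promoter letters came from RefSeq (GRCr8), matched by symbol, and 9149 of the 11337 genes tested had an entry by symbol or synonym.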

Additional observations from a re-analysis of the deposited data

How the results depend on the processing

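With libraries scaled by library size alone, the median of all genes moved by -0.17 in neonatal against fetal, -0.11 in adult against fetal and 0.06 in adult against neonatal libraries. Genes called in neonatal against fetal libraries then numbered 1360 higher and 3325 lower (29.0% of calls higher), beside 2074 and 2040 (50.4%), and 30 of the 39 replication genes were called lower beside 24. In adult against fetal libraries that scaling gave Gmnn, Gins1, Fen1 and Rrm2, which passed under neither, the other direction. No called replication gene changed direction in any of the 15 alternatives. A fit to neonatal and adult libraries alone called 10 replication genes higher in adult libraries, beside 6.

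Leaving out 1 library at a time gave 7 to 28 replication genes called in neonatal against fetal libraries, 7 to 28 of them lower and 0 to 1 higher. In adult against fetal libraries 0 to 5 were called higher, and in adult against neonatal libraries 6 to 11. Over all genes, 2476 to 4679 were called in neonatal against fetal libraries (4114 with all libraries), of which 1090 to 2260 lower and 1386 to 2419 higher. The lowest counts in neonatal against fetal libraries came without a neonatal library, and the cause was not tested.

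Deviations of samples with the same replicate number had correlations of -0.06 to 0.05, and those with different numbers -0.06 to 0.08. These values show no pairing by number. With 3 libraries per age they cannot establish that the samples are unpaired. A fit with the replicate number as a block called 25 replication genes in neonatal against fetal (beside 24, all lower), 25 in adult against fetal (beside 24), 16 in adult against neonatal libraries (beside 14) and 33 over the 3 ages (beside 30). Tyms lost its call in neonatal against fetal libraries under the block.

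Of the values of named genes under the alternatives, 400 kept direction and side of the threshold, 2 lost their call and 3 gained one. The lost calls were Chaf1b and Orc6 in neonatal against fetal libraries without neonatal replicate 3, and the gained ones Gins2 in adult against fetal libraries and E2f1.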

Other observations

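Further pairs of replication genes that act in 1 enzyme or step gave the remaining ratios of counts per base within a library, also chosen after the values were seen. Pole relative to Pold1, the polymerases of the leading and lagging strand, was 0.637, 0.759 and 0.796 in fetal, 0.812, 0.826 and 0.711 in neonatal and 0.439, 0.470 and 0.422 in adult libraries. The adult ratio was below all others. Gins2 relative to Gins3 was 1.36, 1.52 and 1.21 in fetal, 1.18, 1.06 and 1.18 in neonatal and 2.16, 2.95 and 2.61 in adult libraries, so that the adult ratio was the highest without overlap.

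Pcna relative to Rfc3, the clamp to a subunit of its loader, was 4.23, 4.64 and 4.26 in fetal, 4.98, 5.49 and 4.86 in neonatal and 8.42, 6.36 and 6.13 in adult libraries, higher at each age without overlap. Tyms relative to Dut, enzymes that follow each other in dTMP synthesis, was 1.30, 1.43 and 0.851 in fetal, 2.33, 2.15 and 1.87 in neonatal and 0.670, 0.461 and 0.686 in adult libraries. It was highest in neonatal and lowest in adult libraries. Prim1 relative to Prim2 ran from 4.16 to 6.65 and overlapped between adult and fetal libraries. Ccne2 relative to Ccne1 was 0.513, 0.528 and 0.966 in fetal, 0.627, 0.683 and 0.740 in neonatal and 0.587, 0.448 and 0.435 in adult libraries, and it overlapped in both comparisons with fetal libraries. The exact two-sided permutation p for the ratios without overlap was 0.1, the smallest that 3 libraries against 3 can give.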
